A study of Sus scrofa with 12 samples.

Results

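The 34 genes described here are aminoacyl-tRNA synthetases and the scaffold proteins of the multisynthetase complex, followed in pig muscle satellite cells across 2 arms and 2 stages. They were taken by gene symbol: 1 amino acid letter (or EP) followed by ARS with an optional 1 or 2, plus FARSA, AIMP1, AIMP2 and EEF1E1. Of the 31908 genes in the table, the 34 are 15 cytosolic enzymes, 14 mitochondrial enzymes (symbols ending in 2), GARS1 and KARS1, each of which supplies both compartments from 1 gene, and 3 scaffold proteins. FARSB, also in the rule, was not analysed here.

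RNA-seq was performed in 12 libraries of satellite cells, the stem cells of skeletal muscle, which proliferate as myoblasts and fuse when they differentiate. The 4 groups of 3 libraries were CBP_0h and WT_0h, labelled as proliferation, and CBP_60h and WT_60h, labelled as differentiation. The CBP arm is read here as cells given SGC-CBP30, a compound known to block the acetyl-lysine binding bromodomains of the related acetyltransferases, CBP and p300, and the WT arm (columns named NC) as its control. The labels' treatment text, which gives 5 uM/ml for 48 h before and 60 h during differentiation, stands on all 12 samples, controls included. The arm names stand under a genotype tag and the control treatment is not stated, so whether CBP means the compound or a genetic change cannot be told apart from the labels. All samples carry the cell line name C3H, usually a mouse name, although organism and genome build are pig. The labels do not say that replicates came from separate cultures, so the p-values measure only the spread between these libraries, which may be technical.

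Aminoacyl-tRNA synthetases attach each amino acid to its tRNA, the step that supplies the ribosome with charged tRNA. Most amino acids have a cytosolic enzyme and a separate nuclear-encoded enzyme that is imported into mitochondria and serves the translation of mitochondrial DNA transcripts. Several cytosolic enzymes assemble with AIMP1, AIMP2 and EEF1E1 into the multisynthetase complex, and many cytosolic synthetase genes are known in mammals as targets of ATF4, the transcription factor of the amino acid and integrated stress responses. In human cells WARS1 is also known as a gene induced by interferon.

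The values are FPKM, read counts scaled to gene length and library total, as deposited. Library totals recovered from the steps of the values ran from 16095335 to 19155240 reads. Behind the 34 genes stood between 125 reads (TARS2) and 17269 reads (KARS1) in a library. Fits were made with limma on log2(FPKM + 1) over the 11636 genes that reached 1 FPKM in 3 libraries; all 34 of 34 passed this filter. A gene was called at a Benjamini-Hochberg adjusted p under 0.05, adjusted over all 11636 genes. Calls were common: in the CBP arm against control, 44.2% of all tested genes were called higher and 18.1% lower at 0h, and 44.7% higher and 27.0% lower at 60h. The all-gene median change was 0.12 at 0h and 0.11 at 60h (log2), against 0.001 and −0.005 after median-of-ratios scaling between libraries, so changes near 0.1 depend on the scaling. With that scaling, 25.4% of 11623 genes were called higher and 27.0% lower at 0h, and 33.4% higher and 35.9% lower at 60h. Where groups are said not to overlap, every library of 1 group lay above every library of the other. The share of all tested genes without overlap was not counted, so a lack of overlap only describes the gene named.

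The satellite cell and myoblast markers PAX7, MYF5, MYOD1, MYOG, DES and MYMK (6 of 6 measured) summed to 361.6 to 392.5 FPKM in CBP_0h and 1327 to 1351 FPKM in WT_0h, and to 997.4 to 1059 FPKM in CBP_60h and 1556 to 1721 FPKM in WT_60h. At 0h all 6 were called lower in the CBP arm. The largest differences were those of MYOG (on average 28.5 FPKM in CBP_0h and 343.2 FPKM in WT_0h) and MYMK (3.81 FPKM in CBP_0h and 34.46 FPKM in WT_0h). From 0h to 60h MYOG rose 15.7-fold in the CBP arm and 1.72-fold in control. At 60h the 6 markers went apart: DES (−1.27), MYOD1 (−0.54) and MYOG (−0.40) were lower, and PAX7 (0.63) and MYF5 (0.22) were higher. MYMK (0.21, adjusted p = 0.102) was not called. The MYF5 call was lost with the median-of-ratios scaling (0.09). Smooth muscle and pericyte markers (4 of 4) summed to 796.1 to 848.5 FPKM in CBP_0h and 2570 to 2672 FPKM in WT_0h, and to 1546 to 1637 FPKM in CBP_60h and 2603 to 2630 FPKM in WT_60h; of them, 2 in CBP_0h and 1 in WT_0h stayed below 1 FPKM. These sums were nearly all ACTA2 (1558 ± 52.0 FPKM in CBP_60h and 2567 ± 13.2 FPKM in WT_60h; SD, n = 3 each), while RGS5, a pericyte marker, was higher in the CBP arm at 60h (8.44 ± 0.272 FPKM in CBP_60h and 4.57 ± 0.361 FPKM in WT_60h; 0.76, adjusted p = 4.71e-07). Fibroblast markers (4 of 4) summed to 112.2 to 119.6 FPKM in CBP_0h and 145.6 to 152.0 FPKM in WT_0h, and to 282.2 to 325.9 FPKM in CBP_60h and 282.2 to 282.5 FPKM in WT_60h. THY1 was the largest part of these sums, and its arms overlapped at both stages. DCN averaged 11.84 FPKM in CBP_0h and 37.29 FPKM in WT_0h, and PDGFRA and LUM were also lower in CBP_0h. At 60h PDGFRA (20.76 FPKM in CBP_60h and 10.3 FPKM in WT_60h) and LUM (15.38 FPKM in CBP_60h and 12.92 FPKM in WT_60h) were higher in the CBP arm, and DCN overlapped. Endothelial markers summed to at most 3.56 FPKM, immune markers to at most 7.36 FPKM and adipocyte markers to at most 6.34 FPKM in any library. The part of the muscle, smooth muscle and fibroblast markers in the results below was not tested. In bulk RNA, fewer cells of a type and less RNA per cell cannot be told apart.

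After 60h of differentiation, the cytosolic synthetases were lower in the CBP arm than in control and the mitochondrial ones were mixed. Of the 15 cytosolic enzymes, 15 fell and 0 rose, with a median log2 change of −0.62 over the class, where 27.0% of all tested genes were called lower. Of the 14 mitochondrial enzymes, 7 rose, 3 fell and 4 were not called, with a median of 0.15, against the all-gene median of 0.11. Over all tested genes 44.7% were called higher, so the mitochondrial count of higher genes lies near that background. All 3 scaffold genes fell. With median-of-ratios scaling, 15 of 15 cytosolic enzymes were called lower, the mitochondrial counts were 6 higher and 4 lower, and the mitochondrial median was 0.04. The shares of all tested genes with that scaling were 33.4% higher and 35.9% lower.

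**Figure D1:**
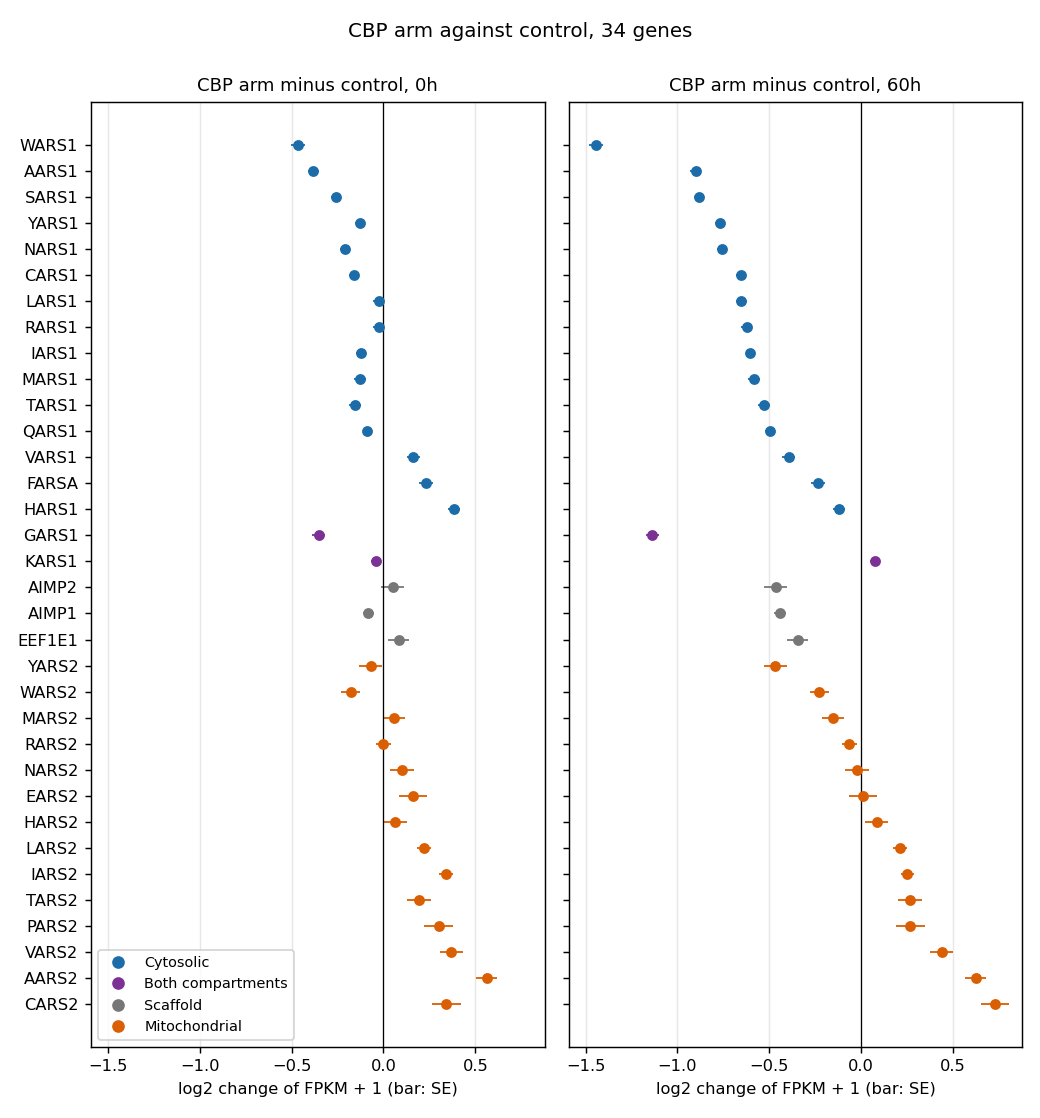
Log2 change of FPKM + 1 in the CBP arm minus control at 0h (left) and at 60h (right) for each of the 34 genes, with bars of 1 SE from the limma fit over 12 libraries and colours for the compartment. At 60h all 15 cytosolic enzymes lie left of 0, from −1.44 (WARS1) to −0.12 (HARS1), while the mitochondrial enzymes spread from −0.47 (YARS2) to 0.73 (CARS2).

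WARS1, the cytosolic enzyme for tryptophan (ENSSSCG00000002516, chromosome 7, 121212981 to 121238144 in Sscrofa11.1), moved most. It had 62.85, 68.92 and 65.92 FPKM in CBP_60h, against 181.8, 181.8 and 178.2 FPKM in WT_60h. The groups lay far apart, and the gene was 2.74-fold lower in the CBP arm (log2 change −1.44, SE 0.038, adjusted p = 1.9e-11). At 0h the same direction was smaller: 80.08, 82.02 and 78.21 FPKM in CBP_0h, against 105.8, 112.6 and 114.8 FPKM in WT_0h (1.39-fold lower, log2 change −0.47, SE 0.038, adjusted p = 6.44e-07). In control cells, differentiation brought WARS1 up 1.63-fold (0.70, SE 0.038, adjusted p = 9.92e-09), while in the CBP arm it fell 1.22-fold at 60h against 0h (−0.28, adjusted p = 2.81e-05).

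AARS1, the enzyme for alanine (ENSSSCG00000002723, chromosome 6, 13298336 to 13321423), had 108.7, 117.2 and 110.1 FPKM in CBP_60h and 210.4, 208.6 and 210.4 FPKM in WT_60h. Every CBP library was below every control library, by 1.87-fold on the means (−0.90, SE 0.030, adjusted p = 1.4e-10). SARS1, which charges serine and also the selenocysteine tRNA, had 97.93, 104.2 and 98.65 FPKM in CBP_60h and 185.5, 184.9 and 186.0 FPKM in WT_60h (1.85-fold lower, −0.88, SE 0.028, adjusted p = 8.68e-11). YARS1, for tyrosine, had 33.30, 35.03 and 34.72 FPKM in CBP_60h and 57.80, 60.29 and 59.19 FPKM in WT_60h (1.72-fold lower, −0.77, SE 0.027, adjusted p = 2.08e-10). For neither SARS1 nor YARS1 did the groups overlap at 60h. The other cytosolic enzymes that fell were NARS1 (asparagine, −0.76), CARS1 (cysteine, −0.66), LARS1 (leucine, −0.65), RARS1 (arginine, −0.62), IARS1 (isoleucine, −0.60), MARS1 (methionine, −0.58), TARS1 (threonine, −0.53), QARS1 (glutamine, −0.50), VARS1 (valine, −0.39), FARSA (phenylalanine, −0.24) and HARS1 (histidine, −0.12). Their adjusted p-values in the limma fit ran from 2.35e-10 (NARS1) to 0.00592 (HARS1).

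MARS1, which charges both the initiator and the elongator methionine tRNA, had 40.06, 40.75 and 42.27 FPKM in CBP_60h, against 60.07, 64.67 and 60.97 FPKM in WT_60h. The CBP libraries were all lower, 1.51-fold on the means (SE of the log2 change 0.033, adjusted p = 1.38e-08). The span of MARS1 overlaps those of DDIT3 and ARHGAP9 in the reference. The strand setting of the counting is not given in the sources used here, so how any reads from a shared stretch were counted is not known. These are overlaps of whole gene spans, and shared exons were not looked for. AIMP2, EARS2, IARS2, TARS1, TARS2, WARS2 and YARS2 also overlap other genes and carry the same uncertainty. FARSA, the catalytic alpha subunit of the phenylalanine enzyme, had 13.63, 14.70 and 13.63 FPKM in CBP_60h and 16.77, 16.32 and 16.86 FPKM in WT_60h, without overlap. At 0h FARSA stood the other way, with 16.33, 17.26 and 16.67 FPKM in CBP_0h and 14.53, 14.14 and 13.71 FPKM in WT_0h (0.23, SE 0.038, adjusted p = 0.000216).

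The genes that serve both compartments went apart. GARS1, the only glycine enzyme (ENSSSCG00000016677, chromosome 18, 42311711 to 42352201), had 105.4, 109.4 and 108.3 FPKM in CBP_60h, against 251.6, 229.1 and 234.1 FPKM in WT_60h. It was 2.21-fold lower in the CBP arm, with no overlap (−1.14, SE 0.036, adjusted p = 8.66e-11). At 0h it had 194.0, 192.9 and 185.7 FPKM in CBP_0h and 236.4, 245.4 and 250.2 FPKM in WT_0h (−0.35, SE 0.036, adjusted p = 4.88e-06). KARS1, the lysine enzyme and a member of the complex (ENSSSCG00000002704, chromosome 6, 12057475 to 12073749), had 177.7, 175.2 and 173.2 FPKM in CBP_60h, against 162.6, 167.6 and 169.8 FPKM in WT_60h. The CBP libraries were slightly higher without overlap (1.05-fold, 0.07, SE 0.026, adjusted p = 0.023). This direction is that of the deposited FPKM only: with median-of-ratios scaling KARS1 was at −0.055 (adjusted p = 0.12), and the call was lost without replicate 1 of CBP_60h (0.06, adjusted p = 0.0799) or replicate 1 of WT_60h (0.06, adjusted p = 0.0942). At 0h KARS1 had 307.7, 303.0 and 301.9 FPKM in CBP_0h and 303.8, 316.5 and 320.1 FPKM in WT_0h, groups that overlap (−0.04, adjusted p = 0.169; −0.18, adjusted p = 0.000277 with median-of-ratios scaling).

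**Figure D2:**
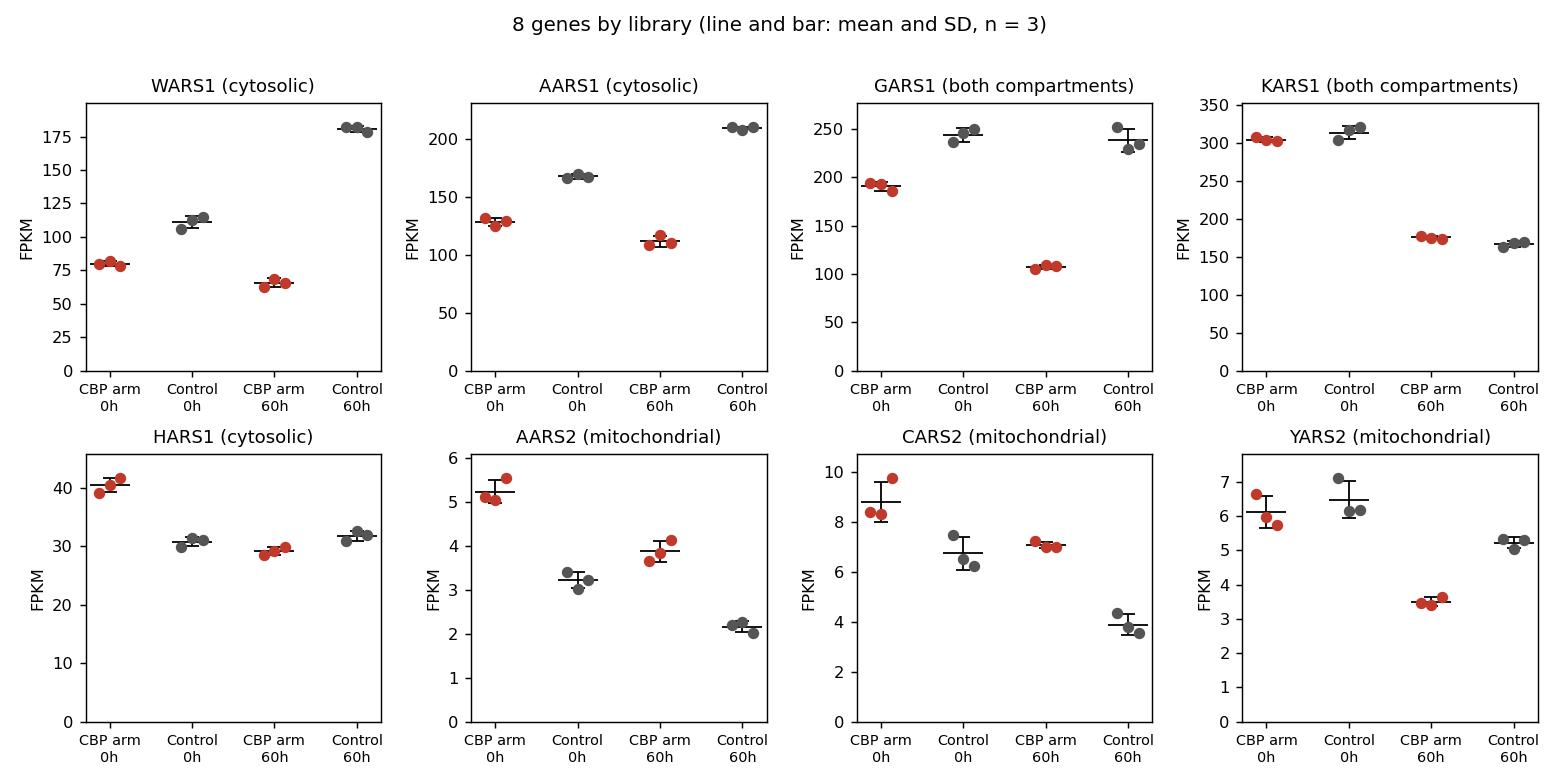
FPKM of 8 synthetase genes in each library of the 4 groups (points), with the mean (line) and SD (bar) over n = 3; the panels have separate axes that start at 0. WARS1, AARS1 and GARS1 are lowest in CBP_60h, KARS1 is lower at 60h than at 0h in both arms, and AARS2 and CARS2 are higher in the CBP arm than in control at either stage.

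The scaffold proteins hold the complex together, and AIMP1 is also known as the precursor of a secreted cytokine. AIMP1 had 9.443, 9.115 and 9.347 FPKM in CBP_60h, against 13.07, 12.69 and 13.20 FPKM in WT_60h (−0.44, SE 0.032, adjusted p = 1.32e-07). AIMP2 had 9.897, 9.165 and 8.742 FPKM in CBP_60h, against 13.32, 12.35 and 13.85 FPKM in WT_60h (−0.47, SE 0.064, adjusted p = 3.38e-05). EEF1E1 had 8.122, 7.0 and 7.197 FPKM in CBP_60h, against 9.346, 9.990 and 9.775 FPKM in WT_60h (−0.35, SE 0.056, adjusted p = 0.00014). In none of the 3 did the groups overlap at 60h. At 0h, AIMP2 had 10.90, 11.53 and 12.41 FPKM in CBP_0h and 11.89, 10.35 and 11.32 FPKM in WT_0h, and EEF1E1 had 10.30, 10.22 and 9.693 FPKM in CBP_0h and 10.04, 9.438 and 8.916 FPKM in WT_0h. Both overlapped and neither was called. AIMP1 at 0h had 14.30, 15.18 and 14.94 FPKM in CBP_0h and 15.64, 15.64 and 15.90 FPKM in WT_0h, and was called narrowly lower (−0.08, adjusted p = 0.0429). That call was lost without any 1 of 8 of the 12 libraries, namely replicates 1 and 3 of CBP_0h, replicate 3 of CBP_60h, all 3 of WT_0h, and replicates 1 and 3 of WT_60h (−0.09 to −0.06, adjusted p between 0.0508 and 0.168).

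The enzymes of the complex and those outside it shared a direction at 60h. Of 5 cytosolic enzymes of the complex, 5 fell (median −0.60), and of 10 outside it, 10 fell (median −0.71); the difference between these subsets was not tested. Split by catalytic fold, 9 of 9 class I enzymes fell (median −0.62), and of 8 class II enzymes 7 fell and 1, KARS1, rose (median −0.64), counting GARS1 and KARS1. EPRS1, the fused glutamate and proline enzyme of the complex, is outside the symbol rule. It averaged 71.1 ± 0.965 FPKM in CBP_60h and 90.9 ± 0.79 FPKM in WT_60h (SD, n = 3 each; −0.35, SE 0.022, adjusted p = 3.06e-08).

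Among the mitochondrial enzymes, the rises at 60h were led by CARS2 and AARS2. CARS2, which charges cysteine (ENSSSCG00000031757, chromosome 11, 77231865 to 77269936), had 7.225, 6.995 and 6.990 FPKM in CBP_60h, against 4.336, 3.785 and 3.531 FPKM in WT_60h. It was 1.82-fold higher in the CBP arm, without overlap (0.73, SE 0.077, adjusted p = 3.65e-06). AARS2, for alanine (ENSSSCG00000001706, chromosome 7, 39301020 to 39314296), had 3.664, 3.840 and 4.141 FPKM in CBP_60h, against 2.196, 2.280 and 2.021 FPKM in WT_60h (1.79-fold higher, 0.62, SE 0.058, adjusted p = 1.13e-06). VARS2, for valine, had 4.399, 4.092 and 4.383 FPKM in CBP_60h, against 2.658, 3.102 and 2.969 FPKM in WT_60h (0.44, SE 0.061, adjusted p = 4.04e-05). The groups of AARS2 and VARS2 did not overlap either. LARS2, for leucine, had 9.585, 10.05 and 9.821 FPKM in CBP_60h and 8.792, 8.100 and 8.100 FPKM in WT_60h (0.21, SE 0.038, adjusted p = 0.000275). IARS2, for isoleucine, the most abundant of the class, had 16.13, 14.92 and 14.87 FPKM in CBP_60h and 13.12, 12.24 and 12.70 FPKM in WT_60h (0.25, SE 0.037, adjusted p = 6.52e-05). Both were higher in every CBP library than in any control library. PARS2 (proline, 0.27) and TARS2 (threonine, 0.27) completed the 7; PARS2 was not called with median-of-ratios scaling (0.16, adjusted p = 0.105).

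The mitochondrial enzymes that fell at 60h were YARS2, WARS2 and MARS2. YARS2, for tyrosine, had 3.470, 3.392 and 3.646 FPKM in CBP_60h, against 5.333, 5.049 and 5.292 FPKM in WT_60h (1.49-fold lower, −0.47, SE 0.061, adjusted p = 2.27e-05). WARS2, for tryptophan, had 6.765, 6.417 and 6.436 FPKM in CBP_60h, against 7.120, 8.033 and 8.361 FPKM in WT_60h (−0.23, SE 0.052, adjusted p = 0.00179). Neither gene's groups overlapped. MARS2, for methionine, had 3.061, 3.006 and 3.150 FPKM in CBP_60h and 3.519, 3.513 and 3.562 FPKM in WT_60h (−0.15, SE 0.061, adjusted p = 0.0387), and this call was lost without any 1 of the 6 libraries of either 60h group (−0.17 to −0.14, adjusted p between 0.0547 and 0.0941). The MARS2 call was also lost with no filter (−0.15, adjusted p = 0.0701) and with limma-voom on the recovered reads (−0.20, adjusted p = 0.0876). EARS2 (glutamate, 0.01), HARS2 (histidine, 0.08), NARS2 (asparagine, −0.02) and RARS2 (arginine, −0.07) were not called.

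Summed over each class, the mRNA level of the 15 cytosolic enzymes was 729 ± 14.6 FPKM in CBP_60h and 1257 ± 6.93 FPKM in WT_60h, and that of the 14 mitochondrial enzymes was 79.8 ± 0.892 FPKM in CBP_60h and 71.2 ± 0.59 FPKM in WT_60h (SD, n = 3 each). The mitochondrial sum thus came to 10.96 ± 0.312% of the cytosolic sum in CBP_60h and 5.67 ± 0.0705% in WT_60h, a share that scaling between libraries cannot change. At 0h the cytosolic sums were 972.9 ± 4.49 FPKM in CBP_0h and 1100.0 ± 8.15 FPKM in WT_0h, and the mitochondrial sums 102.7 ± 0.808 FPKM in CBP_0h and 89.2 ± 1.52 FPKM in WT_0h, or 10.6 ± 0.113% of the cytosolic sum in CBP_0h and 8.11 ± 0.202% in WT_0h. The lowest share of the CBP libraries (10.5%) lay above the highest control share (8.34%). With median-of-ratios scaling the cytosolic sum at 60h was 0.53 times that of control, against 0.58 times as deposited, and the mitochondrial sum was 1.02 times, against 1.12 times. These sums are descriptions and carry no test.

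**Figure D3:**
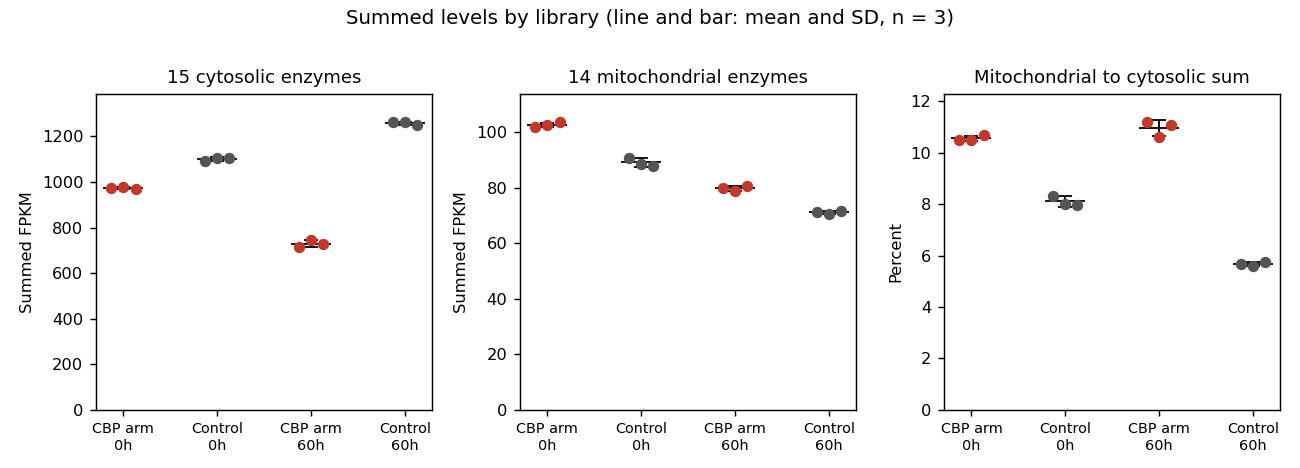
Summed FPKM of the cytosolic enzymes (left) and of the mitochondrial enzymes (middle), and the mitochondrial sum in percent of the cytosolic sum (right), for each library of the 4 groups (points), with mean and SD over n = 3 and axes that start at 0. The cytosolic sum is lowest in CBP_60h (715.0 to 744.0 FPKM) and highest in WT_60h (1249 to 1261 FPKM), and the percentage is above 10 in both CBP groups.

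A cytosolic gene was set against its mitochondrial partner for 12 amino acids. At 60h the cytosolic gene's change in the CBP arm lay below that of its mitochondrial partner for 12 of the 12, with a median difference of −0.81. These differences are of log2(FPKM + 1), which understates the changes of low genes, here mostly the mitochondrial ones, while the ratios below are of mean FPKM. The widest gap was that of alanine, where AARS1 stood at 28.9 times the FPKM of AARS2 in CBP_60h and at 96.9 times in WT_60h. For cysteine the ratio of CARS1 to CARS2 was 2.73 in CBP_60h and 7.98 in WT_60h, and for tryptophan that of WARS1 to WARS2 was 10.1 in CBP_60h and 23.0 in WT_60h. On the log2(FPKM + 1) scale the gap was narrowest for histidine (−0.20), followed by tyrosine (−0.30). This order is not kept by the ratios of mean FPKM. They were 6.55 in CBP_60h and 7.66 in WT_60h for histidine, and 9.81 in CBP_60h and 11.3 in WT_60h for tyrosine. At 0h the cytosolic change was the lower of the pair for 11 of 12 (median difference −0.27), with histidine the other way (0.32). Members are not replicates, and no test was made over the pairs.

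**Figure D4:**
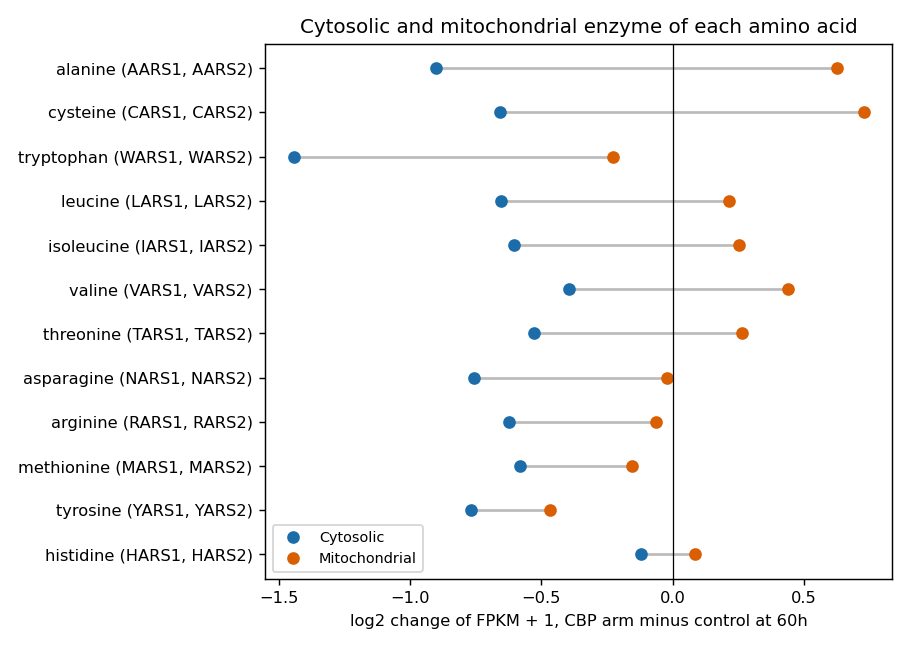
Log2 change of FPKM + 1 in the CBP arm minus control at 60h for the cytosolic (blue) and the mitochondrial (orange) enzyme of 12 amino acids, ordered by the gap between them. The cytosolic point lies left of the mitochondrial one for 12 of 12 amino acids, with differences from −1.52 (alanine) to −0.20 (histidine).

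In proliferation the differences between the arms ran in both directions within the cytosolic class. Of the 15 cytosolic enzymes, 10 were lower in CBP_0h than in WT_0h, 3 were higher and 2 were not called (median −0.13). Of the 14 mitochondrial enzymes, 7 were higher, 1 was lower and 6 were not called (median 0.18). Over all tested genes at 0h, 44.2% were called higher and 18.1% lower with a median of 0.12, so the mitochondrial count of higher genes lies near that background. Over all 34 genes the counts were 10 higher and 13 lower; with median-of-ratios scaling they were 6 higher and 18 lower, with cytosolic counts of 2 higher and 12 lower and mitochondrial counts of 4 higher and 3 lower. AARS2 differed most at 0h, with 5.123, 5.042 and 5.536 FPKM in CBP_0h, against 3.405, 3.031 and 3.228 FPKM in WT_0h (1.62-fold higher, 0.56, SE 0.058, adjusted p = 5.15e-06). AARS1, its cytosolic partner, had 131.7, 124.8 and 129.9 FPKM in CBP_0h, against 166.4, 170.3 and 167.3 FPKM in WT_0h (1.3-fold lower, −0.38, SE 0.030, adjusted p = 5.8e-07). In both genes the groups were separate, in opposite directions.

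HARS1, the cytosolic histidine enzyme, was the cytosolic gene with the largest rise at 0h. It had 39.20, 40.59 and 41.63 FPKM in CBP_0h, against 29.96, 31.36 and 31.10 FPKM in WT_0h (1.31-fold higher, 0.38, SE 0.033, adjusted p = 1.02e-06). VARS1 and FARSA were also called higher; with median-of-ratios scaling HARS1 (0.25) and FARSA were still called, while VARS1 (0.03, adjusted p = 0.548) was not. VARS2 had 5.304, 5.126 and 5.563 FPKM in CBP_0h and 3.546, 4.057 and 4.112 FPKM in WT_0h (0.37, SE 0.061, adjusted p = 0.000236). IARS2 had 19.50, 19.25 and 19.89 FPKM in CBP_0h and 15.40, 15.12 and 15.12 FPKM in WT_0h (0.34, adjusted p = 8.13e-06), and LARS2 had 12.49, 12.86 and 12.94 FPKM in CBP_0h and 10.61, 10.92 and 10.91 FPKM in WT_0h (0.22, adjusted p = 0.000308). All 3 mitochondrial genes were higher in every CBP library. The LARS2 call was lost with median-of-ratios scaling (0.09, adjusted p = 0.0716). CARS2 (0.34), PARS2 (0.30) and TARS2 (0.20, adjusted p = 0.0213) were also called higher; TARS2 was not called without replicate 2 or 3 of CBP_0h or replicate 2 of WT_0h (0.15 to 0.19, adjusted p between 0.0517 and 0.0907), nor with TPM (0.20, adjusted p = 0.058). With median-of-ratios scaling neither PARS2 (0.18, adjusted p = 0.0879) nor TARS2 (0.09, adjusted p = 0.245) was called. MARS2 had 5.262, 5.356 and 4.617 FPKM in CBP_0h and 5.327, 4.586 and 4.608 FPKM in WT_0h, which overlap, and WARS2 alone of the mitochondrial class was called lower (−0.18, adjusted p = 0.0101).

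Differentiation of control cells parted the compartments the other way. In WT_60h against WT_0h, 9 of 15 cytosolic enzymes rose and 3 fell (median 0.14), and 10 of 14 mitochondrial enzymes fell and 0 rose (median −0.295). Over all tested genes, 28.8% were called higher and 38.0% lower, with a median of −0.05. With median-of-ratios scaling the mitochondrial counts were 1 higher, NARS2 (0.17, adjusted p = 0.0331), and 10 lower. WARS1 led the rises, followed by AARS1 (0.32), RARS1 (0.27) and SARS1 (0.26), while LARS1 (−0.23), IARS1 (−0.16) and YARS1 (−0.16) fell. The largest fall was that of KARS1, which at 60h stood 1.88-fold below its 0h level (−0.91, SE 0.026, adjusted p = 4.74e-11), while GARS1 overlapped between the stages (−0.04, adjusted p = 0.412). The summed level of the 15 cytosolic enzymes was 1257 FPKM in WT_60h and 1100 FPKM in WT_0h. Together with GARS1 and KARS1 it was 1662 FPKM in WT_60h and 1658 FPKM in WT_0h, so the rise in the sum holds only without these 2 genes. CARS2 was at 4.336, 3.785 and 3.531 FPKM in WT_60h, against 7.472, 6.490 and 6.228 FPKM in WT_0h (1.73-fold lower, −0.66, SE 0.077, adjusted p = 1.01e-05). WARS2 was at 7.120, 8.033 and 8.361 FPKM in WT_60h, against 11.31, 10.87 and 10.55 FPKM in WT_0h (−0.43, SE 0.052, adjusted p = 1.24e-05), and AARS2 fell 1.49-fold (−0.42, SE 0.058, adjusted p = 4.83e-05). For these 3 genes the stages did not overlap. PARS2 was called lower (−0.26, adjusted p = 0.0127) but not without replicate 3 of WT_0h (−0.19, adjusted p = 0.0594).

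In the CBP arm, 32 of the 34 genes were lower in CBP_60h than in CBP_0h and 0 were higher, where 41.5% of all tested genes were called lower and 31.3% higher (median −0.06). All 15 cytosolic enzymes (median −0.36), 12 of 14 mitochondrial enzymes (median −0.285), GARS1, KARS1 and the 3 scaffold genes fell; HARS2 and NARS2 were not called. With values rescaled to TPM, where 37.3% of 13286 genes were called higher and 30.9% lower, 27 of the 34 were lower and 0 higher. The losses under TPM were CARS2 (adjusted p = 0.0754), EARS2 (0.055), PARS2 (0.0506), TARS1 (0.0662) and RARS2 (0.874). LARS1, the leucine enzyme known as a leucine sensor of the mTORC1 pathway, was at 25.05, 23.48 and 23.54 FPKM in CBP_60h, against 43.89, 44.02 and 44.63 FPKM in CBP_0h (1.84-fold lower, −0.85, SE 0.029, adjusted p = 9.79e-11). GARS1 fell 1.77-fold (−0.82, SE 0.036, adjusted p = 9.76e-10), YARS1 1.75-fold (−0.79, SE 0.027, adjusted p = 9.94e-11) and KARS1 1.73-fold (−0.79, SE 0.026, adjusted p = 6.93e-11). YARS2 was at 3.470, 3.392 and 3.646 FPKM in CBP_60h, against 6.651, 5.986 and 5.733 FPKM in CBP_0h (−0.66, SE 0.061, adjusted p = 9.43e-07). None of these 5 genes overlapped between the stages. RARS2 was called lower (−0.11, adjusted p = 0.0263) but not without replicate 2 of CBP_0h (−0.10, adjusted p = 0.078) or replicate 2 of CBP_60h (−0.09, adjusted p = 0.0876).

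**Figure D5:**
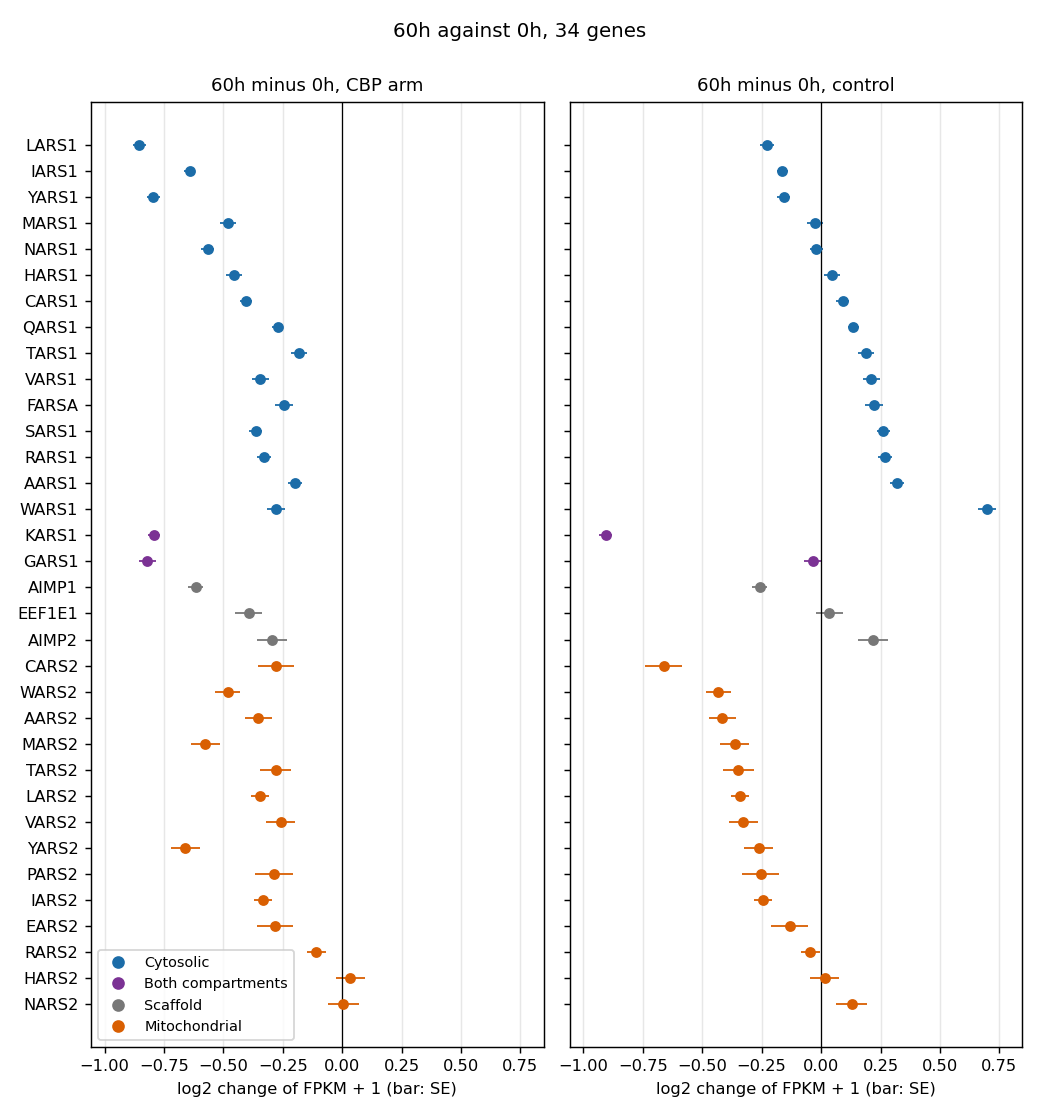
Log2 change of FPKM + 1 at 60h minus 0h in the CBP arm (left) and in control (right) for each of the 34 genes, with bars of 1 SE from the limma fit and colours for the compartment. All 15 cytosolic enzymes lie left of 0 in the CBP arm, while in control they run from −0.23 (LARS1) to 0.70 (WARS1); the mitochondrial enzymes lie mostly left of 0 in both panels.

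The difference between the arms itself changed with the stage for the cytosolic enzymes. In the interaction, the change in the CBP arm against control at 60h minus that at 0h, 15 of 15 cytosolic enzymes were called lower (median −0.52, from −0.98 to −0.37), where 26.7% of all tested genes were called lower and 24.3% higher (median −0.01). The largest terms were those of WARS1 (−0.98, SE 0.053, adjusted p = 3.8e-08), GARS1 (−0.79, SE 0.051, adjusted p = 1.62e-07), YARS1 (−0.64, SE 0.038, adjusted p = 8.18e-08), LARS1 (−0.63, SE 0.041, adjusted p = 1.69e-07) and SARS1 (−0.63, SE 0.040, adjusted p = 1.3e-07). For SARS1 the 0h values were 127.1, 133.5 and 127.3 FPKM in CBP_0h and 154.8, 153.1 and 155.9 FPKM in WT_0h. For YARS1 they were 61.06, 59.33 and 60.39 FPKM in CBP_0h and 66.99, 65.62 and 65.46 FPKM in WT_0h, and for LARS1 43.89, 44.02 and 44.63 FPKM in CBP_0h and 43.98, 45.42 and 45.64 FPKM in WT_0h. In the deposited FPKM the arms were thus apart in SARS1 and YARS1 but overlapped in LARS1 at 0h. With median-of-ratios scaling LARS1 was called lower at 0h (−0.16, adjusted p = 0.00055 in the limma fit). In all 3 genes the gap was wider at 60h, where LARS1 had 25.05, 23.48 and 23.54 FPKM in CBP_60h and 38.56, 38.20 and 38.13 FPKM in WT_60h. MARS1, with 56.81, 57.39 and 58.58 FPKM in CBP_0h and 61.23, 63.98 and 63.85 FPKM in WT_0h, had an interaction of −0.45 (adjusted p = 7.39e-06). All 3 scaffold genes were called lower too, and KARS1 was called higher (0.12, adjusted p = 0.0192).

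Of the 14 mitochondrial enzymes, 12 had no called interaction (class median −0.04). CARS2 was the 1 called higher (0.38, SE 0.109, adjusted p = 0.0112). YARS2 was the 1 called lower (−0.40, SE 0.086, adjusted p = 0.00226). AARS2, higher in the CBP arm at both stages, had an interaction of 0.06 (SE 0.082, adjusted p = 0.556), which does not show that its difference was equal at both. MARS2 was not called (−0.21, adjusted p = 0.0586), but was without replicate 3 of CBP_0h (−0.27, adjusted p = 0.0173) or replicate 1 of WT_0h (−0.27, adjusted p = 0.0155).

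By level, the order of the cytosolic class was led by AARS1 in WT_0h (168.0 ± 2.04 FPKM), CBP_60h (112.0 ± 4.56 FPKM) and WT_60h (209.8 ± 1.07 FPKM), and by SARS1 in CBP_0h (129.3 ± 3.64 FPKM), where AARS1 (128.8 ± 3.59 FPKM) lay within the spread of SARS1. FARSA was lowest of the class in all 4 groups (13.98 to 16.75 FPKM on average). KARS1 had the highest mean of all 34 genes in CBP_0h, WT_0h and CBP_60h, whereas in WT_60h GARS1 was highest (238.3 ± 11.9 FPKM). Of the mitochondrial enzymes IARS2 was highest in each group, and NARS2 was lowest in all groups but WT_60h, where TARS2 was (1.67 ± 0.143 FPKM, against 1.81 ± 0.16 FPKM for NARS2, within their spread).

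The genes around the synthetases were followed in 4 lists. In these lists a gene could pass the low-value filter through the group in which it was high, so the counts describe the genes that passed. They stand against these shares of all tested genes: 44.7% higher and 27.0% lower for the CBP arm at 60h, 44.2% higher and 18.1% lower for it at 0h, 28.8% higher and 38.0% lower for differentiation of control cells, 31.3% higher and 41.5% lower for differentiation in the CBP arm, and 24.3% higher and 26.7% lower for the interaction. Of 30 ATF4 and amino acid genes, 24 were lower and 5 higher in CBP_60h than in WT_60h (median −0.66), with the largest falls in STC2 (a secreted glycoprotein, −1.88), CTH (cystathionine gamma-lyase, −1.85) and CBS (cystathionine beta-synthase, −1.74). At 0h, 19 were lower and 3 higher (median −0.23). ATF4 itself had 68.3, 72.2 and 66.55 FPKM in CBP_60h and 85.51, 87.86 and 89.83 FPKM in WT_60h (−0.34, SE 0.033, adjusted p = 1.78e-06), and 100.7, 95.98 and 99.86 FPKM in CBP_0h and 129.2, 132.0 and 134.2 FPKM in WT_0h (−0.41, SE 0.033, adjusted p = 6.84e-07). ATF4 was lower in every CBP library at either stage. It had no called interaction (0.07, adjusted p = 0.244), and in control cells it fell on differentiation (−0.58, SE 0.033, adjusted p = 1.77e-08), where the list held 12 higher and 11 lower genes. In the CBP arm from stage to stage the list held 4 higher and 21 lower genes, and in the interaction 4 higher and 21 lower. The largest change of the list in both was a rise, that of NUPR1 (3.64 from stage to stage and 2.56 in the interaction). NUPR1 averaged 378.5 FPKM in CBP_60h and 112.6 FPKM in WT_60h, while at 0h it was lower in the CBP arm (−0.82). DDIT3, whose span overlaps that of MARS1, also rose from stage to stage in the CBP arm (1.55). It averaged 8.81 FPKM in CBP_60h and 4.29 FPKM in WT_60h and was 1 of the 5 genes of the list higher there.

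Of 30 interferon-stimulated genes, 26 were tested. In CBP_60h against WT_60h, 24 were lower and 0 higher (median −1.63), led by IFIT1 (−3.29), RSAD2 (−3.16) and ISG15 (−2.56), all antiviral effectors. In control cells at 60h against 0h, 24 were higher and 0 lower (median 1.54). RSAD2, MX2, CMPK2, CXCL10 and OAS1 passed the low-value filter only through WT_60h, the group in which they were high. Their direction in the comparisons with WT_60h was thus largely set by the filter. At 0h in the CBP arm against control, 15 were higher and 2 lower (median 0.27), among them MX1 (1.27), while WARS1 was lower. With median-of-ratios scaling 10 of the list were higher and 3 lower at 0h (median 0.17). In the CBP arm at 60h against 0h, 7 were higher and 11 lower (7 higher and 7 lower with TPM), and in the interaction 24 were lower and 0 higher. The part of either list in the values of the synthetases was not tested.

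Other genes of tRNA charging and editing gave 12 tested of 17 listed. In CBP_60h against WT_60h 7 were lower and 2 higher (median −0.21; 8 lower and 1 higher with median-of-ratios scaling), among them QRSL1 (a subunit of the mitochondrial glutaminyl-tRNA amidotransferase, −0.71) and PSTK (the kinase of seryl-tRNA for selenocysteine, 0.77). At 0h 4 were higher and 0 lower, AARSD1 (an alanyl-tRNA editing protein, 0.26) first, against 0 higher and 2 lower with median-of-ratios scaling; the share higher was below that of all tested genes. Of the other comparisons, control differentiation held 3 higher and 4 lower, the CBP arm at 60h against 0h 1 higher and 8 lower (3 higher and 8 lower with median-of-ratios scaling, 4 higher and 7 lower of 13 tested with TPM), and the interaction 1 higher and 7 lower. Of 13 elongation factors, which bring charged tRNA to the ribosome or move it there, 11 were tested, and 6 were higher and 3 lower in CBP_60h than in WT_60h (median 0.13; 3 higher and 5 lower with median-of-ratios scaling, median −0.002). EEF1A2, the muscle and nerve form of the tRNA-carrying factor, was the lowest (−2.05, SE 0.078, adjusted p = 4.15e-10), and EEF2K, the kinase that inhibits EEF2, was higher (0.65). At 0h 7 were higher and 1 lower (2 higher and 1 lower with median-of-ratios scaling). On differentiation 9 of the 11 fell and 1 rose in control cells (median −0.64) and 10 fell and 1 rose in the CBP arm (median −0.64), EEF1B2 among them (−0.95 in control and −0.99 in the CBP arm), and in the interaction 5 were lower and 2 higher.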

How the data were processed

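RNA-seq libraries of 12 pig satellite cell samples, 3 in each of 4 groups, were made from total RNA with the VAHTS Universal V8 kit, per the labels' protocols. The submitters' processing notes name Trimmomatic (read trimming), featureCounts (counting) and the build Sscrofa11.1; their versions, the aligner, annotation release and strandedness were not given in the sources used here. The authors deposited 1 table of FPKM values for 31908 genes, 1 column per library. Columns named NC were matched to the WT samples and columns named CBP to the CBP samples, by stage and replicate number. Positions and overlaps come from the RefSeq gene table of Sscrofa11.1, matched by gene symbol, also without the final 1 (AARS for AARS1). The gene identifiers were not used in this match. In it, 33 of 34 genes had an entry and 8 of them overlap another gene.

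Because whole reads had been counted, each FPKM value is a whole number of steps of 1 read; all 22521 genes above 0 gave whole reads within 0.001, which provided library totals and reads per gene. Replicates differed by more than sampling noise. The main fit was limma 3.58.1 (R 4.3.3) on log2(FPKM + 1), a scale that understates changes of low genes, with 4 group means over 12 libraries and a trended empirical Bayes spread. Genes that did not reach 1 FPKM in 3 libraries were left out, which kept 11636. The 5 comparisons were two-sided, with Benjamini-Hochberg adjustment over all genes tested. Scripts were tested on simulated data. Fold values are ratios of mean FPKM. Alternatives were a pseudocount of 0.1, no filter, median-of-ratios scaling, TPM, a fit of only the groups compared, a replicate block, limma-voom on the recovered reads, and each library left out.

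Library values are given for the 5 called genes with the largest change in each comparison and for WARS1, AARS1, GARS1, KARS1, MARS1, LARS2, IARS2, MARS2, FARSA and the scaffold genes, and beside these for a few more; from each list at most 3 called genes with the largest change are named, and ATF4 beside them. The symbol rule found 36 genes; 2 of them are not reported here and are left out of every class count, median and sum. The members, lists and tests were chosen with earlier results of these data known.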

Additional observations from a re-analysis of the deposited data

Results flagged for a closer look

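In 22 of the 34 genes the difference between the CBP arm and control was itself different at 60h and at 0h, by the interaction term of the limma fit (adjusted p under 0.05 over 11636 genes). Such terms were common: 24.3% of all tested genes were called higher and 26.7% lower, against 2 higher and 20 lower of the 34. The log2 terms, 60h minus 0h, of the cytosolic enzymes were −0.98 (WARS1), −0.64 (YARS1), −0.63 (LARS1), −0.63 (SARS1), −0.60 (RARS1), −0.56 (VARS1), −0.55 (NARS1), −0.52 (AARS1), −0.50 (HARS1), −0.50 (CARS1), −0.48 (IARS1), −0.47 (FARSA), −0.45 (MARS1), −0.41 (QARS1) and −0.37 (TARS1). HARS1, VARS1 and FARSA were higher in CBP_0h than in WT_0h and lower in CBP_60h than in WT_60h. GARS1 was at −0.79 and KARS1 at 0.12. The scaffold genes were at −0.52 (AIMP2), −0.43 (EEF1E1) and −0.36 (AIMP1). Of the mitochondrial enzymes, YARS2 (−0.40) and CARS2 (0.38) were called.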

How the results depend on the processing

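The number of the 34 genes called stayed within 1.5 times the reported count under each of the alternatives tried (18 for the interaction, 19 for each other comparison). It ran from 21 to 24 for the CBP arm against control at 0h (23 reported), from 28 to 30 at 60h (30), from 24 to 27 for the stages in control (25), from 27 to 32 for the stages in the CBP arm (32) and from 22 to 23 for the interaction (22). Leaving out 1 library gave 21 to 24, 28 to 30, 24 to 25, 31 to 32 and 22 to 23. With the replicate block the counts were 22, 30, 25, 32 and 22; the call lost was that of AIMP1 at 0h (adjusted p = 0.0607). Same-numbered libraries did not deviate together (12 correlations from −0.094 to 0.082), so the numbers were not taken to pair samples. Of single values, 40 lost and 19 gained a call with their direction kept, and 2 turned: KARS1 in the CBP arm against control at 60h (−0.055, adjusted p = 0.12, with median-of-ratios scaling) and NARS1 in control at 60h against 0h (−0.02 as reported, 0.064 with TPM, adjusted p = 0.0487). EARS2 at 0h was called higher without replicate 1 or 3 of CBP_60h or replicate 2 of WT_0h (0.16 to 0.21, adjusted p between 0.0344 and 0.0483). Of the 40 lost and 19 gained, 6 were lost and 8 gained with median-of-ratios scaling, 7 lost and 3 gained with TPM, and 0 changed with the pseudocount of 0.1. The cause was not tested. With GARS1 and KARS1 counted among the cytosolic enzymes, their sum in CBP_60h was 0.609 times that in WT_60h. Searches for sequence motifs were not run. Depth bears most on the mitochondrial class, where TARS2 reached as few as 125 reads.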
